A study of Arabidopsis thaliana with 12 samples.

Results

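The JASMONATE ZIM-DOMAIN (JAZ) repressor family was followed here through 10 of its genes, JAZ1, JAZ2, JAZ3, JAZ5, JAZ6, JAZ7, JAZ8, JAZ9, JAZ10 and JAZ12, out of 32678 genes in the count table. They were listed by locus name, with earlier results of these data known. All 10 had enough reads to enter the tests, beside 19167 tested genes in all. JAZ4, JAZ11 and JAZ13 lie outside the set and are given by their counts only.

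JAZ proteins repress jasmonate-responsive genes by binding MYC2 and related transcription factors and by recruiting co-repressors of the TOPLESS family, for most members through the adaptor NINJA. When the hormone jasmonoyl-isoleucine accumulates, the F-box protein COI1 binds it together with a JAZ protein, the JAZ protein is ubiquitinated and degraded, and the transcription factors are released. Most JAZ genes are themselves switched on by jasmonate and by wounding, so that new repressor is made while the old is destroyed. In leaves the pathway is known for defence against chewing insects and necrotrophs and for its antagonism with salicylic acid. Pseudomonas syringae pv. tomato (Pst) DC3000 exploits it by making coronatine, a toxin that mimics the hormone at COI1.

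Leaves of 4-week-old Arabidopsis thaliana plants were compared between camta3-D, a line that carries a dominant allele of CAMTA3 (sr1-4D in the study), and the Col-0 ecotype, the wild type. CAMTA3 is a calmodulin-binding transcription activator with relatives that share its binding element. In each genotype leaves were infiltrated with flg22 (100 nM), a flagellin peptide seen by the surface receptor FLS2, and sampled at 1 h, or with Pst DC3000 carrying AvrRpm1 or AvrRps4 (OD600 of 0.001) and sampled at 4 h. AvrRpm1 is an effector recognized by the intracellular receptor RPM1 and AvrRps4 by RPS4 with RRS1. Each of the 6 groups had 2 libraries, and each sample pooled leaf discs of 6 plants. The line is a single mutant line, no mock-treated or untreated leaves were analysed here, and flg22 and Pst differ in both elicitor and time. A difference between flg22 and Pst leaves therefore cannot be assigned to either, since the 2 cannot be told apart. The labels do not say whether the replicates were grown separately. The study's text mentions independent experiments but does not tie them to the replicate numbers. The p-values below weigh differences between groups only against the spread of these libraries within groups. In the main fit that spread was estimated for each gene over all 6 groups together.

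The libraries held 22.8 to 26.3 M reads in genes. Scaling factors (trimmed mean of M-values, TMM) were 1.04 to 1.17 in the Pst libraries and 0.797 to 0.825 in the flg22 libraries. In camta3-D AvrRpm1 replicate 2 reads that aligned to several places made up 7.78% of the counted lines, against at most 3.43% in the other libraries. CAMTA3 was not called between genotypes in any treatment, with 210 and 193 CPM in camta3-D and 195 and 191 CPM in Col-0 after flg22, 49.9 and 50.6 against 68.2 and 59.3 CPM after AvrRpm1, and 95.0 and 124 against 87.0 and 122 CPM after AvrRps4. The allele changes the protein, so these levels do not check the genotype labels. The tissue was leaf by its markers: 4 mesophyll markers summed to 38839 to 62161 CPM over the 12 libraries. The 3 root markers summed to at most 0.184 CPM. The 2 trichome markers summed to 0.876 to 2.76 CPM, though 1 of them, the regulator GL1, had no read.

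On TAIR10.1 the 10 genes lie at chr1:6621777-6623668 (JAZ1, AT1G19180), chr1:28148574-28150446 (JAZ2, AT1G74950), chr3:6119707-6123044 (JAZ3, AT3G17860), chr1:5955155-5957511 (JAZ5, AT1G17380), chr1:27273968-27276562 (JAZ6, AT1G72450), chr2:14573030-14573952 (JAZ7, AT2G34600), chr1:10596352-10597341 (JAZ8, AT1G30135), chr1:26654529-26657350 (JAZ9, AT1G70700), chr5:4218786-4221077 (JAZ10, AT5G13220) and chr5:7090704-7092539 (JAZ12, AT5G20900). JAZ2, JAZ5 and JAZ6 are on the minus strand and the others on the plus strand. The upstream sequences of 3 members are printed first because they mark members on which the results turn: JAZ2 and JAZ9, the only members called in a comparison of genotypes within a treatment, and JAZ3, whose levels followed a course of its own. Each run is the 300 bases before the annotated gene start, 5′ to 3′ on the strand of the gene, read from RefSeq's TAIR10.1 genome. Capitals mark CACGTG, the G-box that MYC factors bind, and CGCG, the core of the element that CAMTA proteins bind.
JAZ2, chr1:28150447-28150746, minus strand: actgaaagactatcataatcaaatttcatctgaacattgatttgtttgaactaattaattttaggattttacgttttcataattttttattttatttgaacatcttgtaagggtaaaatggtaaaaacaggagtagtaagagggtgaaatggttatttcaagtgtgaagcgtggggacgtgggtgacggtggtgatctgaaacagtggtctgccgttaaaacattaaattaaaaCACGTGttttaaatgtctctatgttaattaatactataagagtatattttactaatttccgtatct
JAZ3, chr3:6119407-6119706, plus strand: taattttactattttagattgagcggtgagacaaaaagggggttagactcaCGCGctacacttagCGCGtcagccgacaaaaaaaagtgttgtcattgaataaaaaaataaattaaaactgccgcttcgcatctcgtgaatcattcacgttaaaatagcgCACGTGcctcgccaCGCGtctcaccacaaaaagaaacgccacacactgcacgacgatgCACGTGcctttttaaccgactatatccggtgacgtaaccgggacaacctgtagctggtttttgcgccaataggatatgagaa
JAZ9, chr1:26654229-26654528, plus strand: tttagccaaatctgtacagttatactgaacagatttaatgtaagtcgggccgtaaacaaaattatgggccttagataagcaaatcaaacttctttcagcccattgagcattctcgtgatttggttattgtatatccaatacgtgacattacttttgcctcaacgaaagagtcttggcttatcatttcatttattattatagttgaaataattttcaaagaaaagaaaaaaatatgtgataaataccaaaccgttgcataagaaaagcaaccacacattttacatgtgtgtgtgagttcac

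Both strands were searched. CACGTG, which reads the same on both, lay in the window of 4 of 10 members and in 7.09% of 27443 gene windows of the same length. Besides JAZ2 (66 bases before the start) and JAZ3 (140 and 82 bases before it), it was found in JAZ7, 34 bases before the start, and in JAZ8, 10 bases before it. CGCG, likewise the same on both strands, lay in 3 of 10 members and in 11.8% of all windows. Among these, JAZ3 held it 249, 235 and 126 bases before the start, and JAZ5 229 bases before it. Short stretches of JAZ5, JAZ7 and JAZ8 around these letters were as follows, with the same marking.
JAZ5, CGCG: tatcgttaCGCGtaaggaaa
JAZ7, CACGTG: gcattttaCACGTGcgtgaaga
JAZ8, CACGTG: acattttcCACGTGagag
The other form of the CAMTA core, CGTG, was counted on either strand and is contained in every CACGTG. It was in 9 of 10 members, JAZ2 and JAZ9 among them, and in 50.5% of all windows. The capitals do not mark it on its own. JAZ3 was the only member with both marked motifs. These are letters in a short window and say nothing of binding. JAZ1, JAZ5 and JAZ10 also belong to the list of immediate-early genes that the study drew up from other samples.

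The family gave far more transcript in the flg22 leaves than in the Pst leaves, in both genotypes. Summed over the 10 genes and divided by exon length, the level was 933 and 951 CPM per kb in camta3-D and 1117 and 1279 CPM per kb in Col-0 at 1 h after flg22. At 4 h after AvrRpm1 it was 104 and 115 CPM per kb in camta3-D and 97.97 and 124 CPM per kb in Col-0, and after AvrRps4 it was 121 and 139 against 182 and 166 CPM per kb. The genotypes did not overlap after flg22 or AvrRps4, with camta3-D lower in both, and overlapped after AvrRpm1. Of all tested genes taken singly, 25.6% separated in this direction after flg22 and 27.5% after AvrRps4. JAZ1, not called between genotypes after flg22, alone had a mean of 414 CPM per kb in camta3-D and 601 CPM per kb in Col-0 there. These libraries are of bulk leaf, in which fewer cells of a type and less RNA per cell cannot be told apart.

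The make-up of the pool also differed. JAZ1 held 8.43% to 21.4% of the summed CPM per kb in the Pst libraries and 43.8% to 51.1% in the flg22 libraries. JAZ12, whose protein depends on the ubiquitin ligase KEG for its stability, held 34.5% to 57.4% after Pst, where it was the largest share in every library, and 9.29% to 9.56% after flg22. After flg22 JAZ9 held 10.3% to 14.5% and JAZ6 10.4% to 14.1%, next to JAZ1. JAZ7 and JAZ8 stayed below 4% of the sum in every library.

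**Figure D1:**
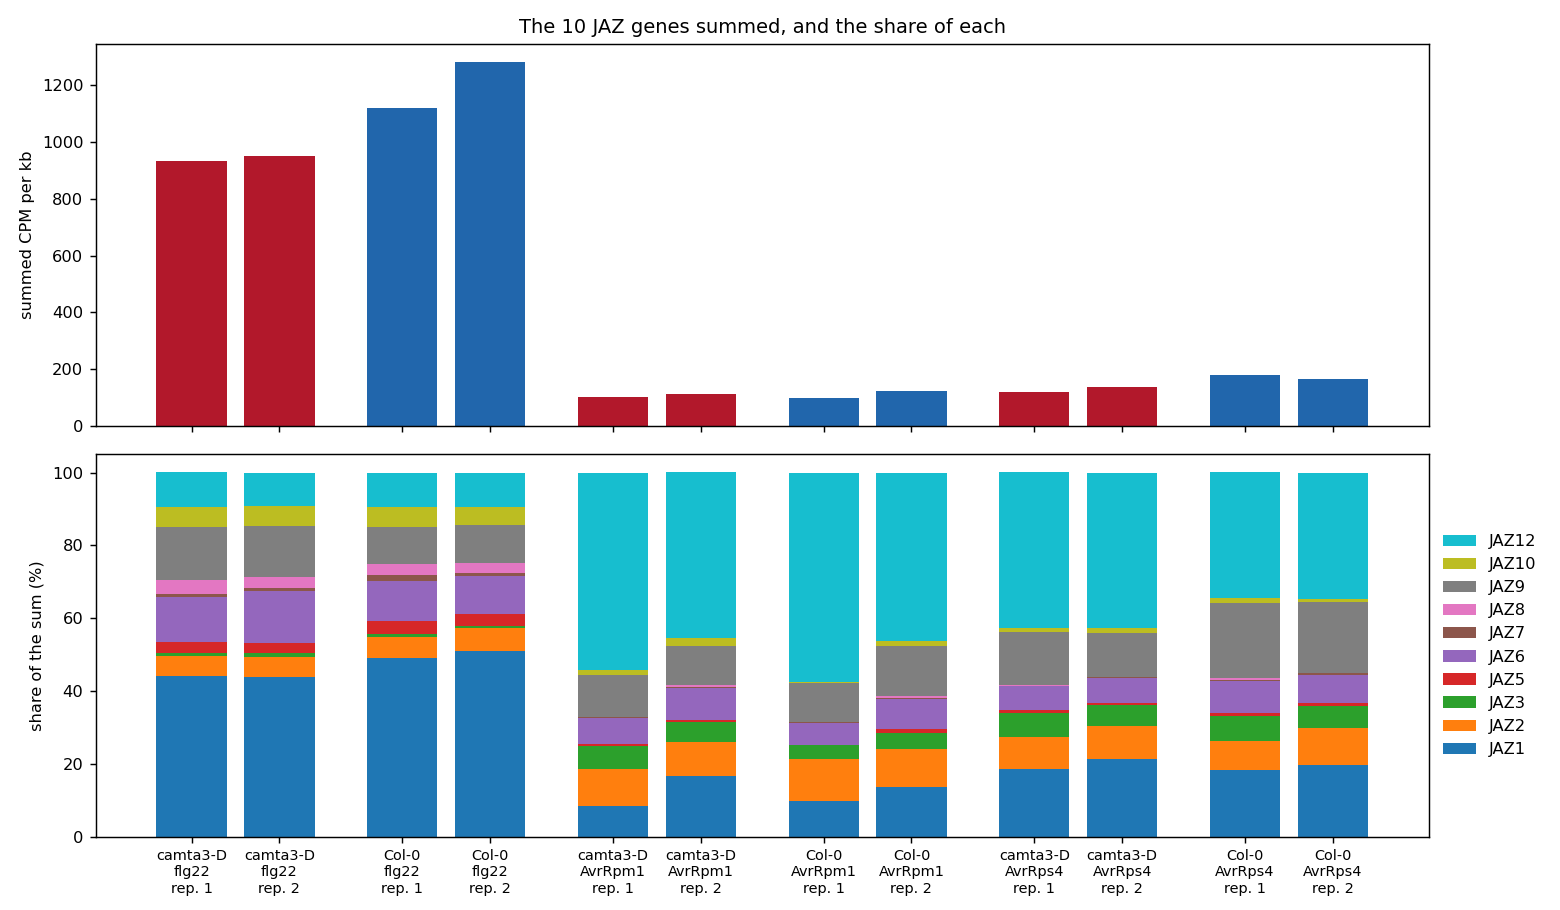
The top panel gives the CPM per kb of exon summed over the 10 JAZ genes in each of the 12 libraries (camta3-D red, Col-0 blue), and the bottom panel gives the share of that sum held by each gene in percent. The Pst libraries stand between 97.97 and 182 CPM per kb with JAZ12 as the largest share, and the flg22 libraries between 933 and 1279 CPM per kb with JAZ1 as the largest share.

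In camta3-D all 10 members were lower at 4 h after Pst (both strains averaged) than at 1 h after flg22, where 32.5% of all tested genes were called lower and 33.9% higher (edgeR's quasi-likelihood test, Benjamini-Hochberg adjusted p under 0.05 over all tested genes). In Col-0, 9 of the 10 were lower and none was higher, where 34.3% of all genes were called lower and 36.8% higher. The median log2 difference of the members was -4.13 in camta3-D, beside 0.03 over all tested genes, and -4.21 in Col-0, beside 0.05. The difference was largest for JAZ8, a repressor that resists degradation because its degron departs from that of its relatives. JAZ8 had 1, 16, 4 and 4 reads in the 4 camta3-D Pst libraries, against 546 and 471 reads in the camta3-D flg22 libraries (log2 difference -6.86 ± 0.52 SE, adjusted p = 1.79e-06). In Col-0 it had 3, 18, 17 and 3 reads after Pst, against 589 and 572 reads after flg22 (-6.20 ± 0.48, adjusted p = 1.67e-06). Its Pst levels rest on so few reads that they cannot be ordered among themselves.

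JAZ1, the founding member, which binds MYC2, had 15.8, 34.7, 40.6 and 53.7 CPM in the camta3-D Pst libraries, against 741 and 751 CPM after flg22 (-4.43 ± 0.29). In Col-0 it had 17.4, 30.7, 60.0 and 58.9 CPM after Pst, against 989 and 1179 CPM after flg22 (-4.84 ± 0.30, a 28.7-fold lower level). No Pst library came near a flg22 library. JAZ5 and JAZ10, which in combination restrain the response of leaves to coronatine, were lower by similar amounts: the log2 difference of JAZ5 was -5.26 ± 0.36 in camta3-D and -5.36 ± 0.34 in Col-0. For JAZ10 it was -4.81 ± 0.39 in camta3-D and -5.39 ± 0.39 in Col-0. The gene has 7 annotated mRNAs, some of which encode forms that resist degradation, and counts per gene do not separate them.

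JAZ7, a close relative of JAZ8, had 2 to 18 reads in the Pst libraries and 118 to 308 reads in the flg22 libraries, with log2 differences of -4.94 ± 0.31 in camta3-D and -5.28 ± 0.28 in Col-0. JAZ6, which takes part in the clock's control of resistance to Botrytis, gave -3.83 ± 0.21 in camta3-D and -3.58 ± 0.21 in Col-0. JAZ9 gave -3.22 ± 0.16 in camta3-D and -2.51 ± 0.16 in Col-0, and JAZ2 -2.23 ± 0.11 in camta3-D and -2.40 ± 0.10 in Col-0. The adjusted p of these 4 genes and of JAZ1, JAZ5 and JAZ10 lay between 6.05e-08 and 2.62e-06 in the 2 genotypes. JAZ12 differed least among the members lower in both genotypes. It stood at 61.0, 56.3, 55.8 and 64.1 CPM in the camta3-D Pst libraries and at 96.1 and 95.5 CPM after flg22 (-0.69 ± 0.09), and at 60.8, 61.9, 67.8 and 62.2 CPM in Col-0 after Pst and 114 and 132 CPM after flg22 (-0.96 ± 0.09). JAZ12 overlaps genes on the other strand by 49 exon bases and JAZ10 by 71, and the strand setting of the counting is not given in the sources used here, so reads there may come from either gene.

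JAZ3, known from a dominant jasmonate-insensitive allele that lacks the end of the protein, did not share this pattern. It had 18.7, 17.1, 22.5 and 21.5 CPM in the camta3-D Pst libraries and 24.5 and 29.9 CPM after flg22 (-0.45 ± 0.17, adjusted p = 0.0345). This call was lost without camta3-D flg22 replicate 2 (-0.31, adjusted p = 0.242), without either camta3-D AvrRps4 library (adjusted p = 0.0595 and 0.0698) or without camta3-D AvrRpm1 replicate 2 (adjusted p = 0.0750). Set against flg22 alone, AvrRpm1 gave -0.60 (adjusted p = 0.0220) and AvrRps4 -0.30 (adjusted p = 0.196) in camta3-D, in contrasts added after the data had been seen. In Col-0 JAZ3 had 10.3 and 15.8 CPM after AvrRpm1 and 35.2 and 27.8 CPM after AvrRps4, against 19.5 and 21.4 CPM after flg22, so that the mean of both strains gave a difference of -0.01 ± 0.17 (adjusted p = 0.967). The strains lay on opposite sides of flg22: AvrRpm1 alone gave -0.64 (adjusted p = 0.0155) and AvrRps4 alone 0.63 (adjusted p = 0.0158), in contrasts added in the same way. With no scaling beyond library size the median of all genes moved to 0.45 in camta3-D and 0.53 in Col-0, and JAZ3 to -0.03 (adjusted p = 0.881) in camta3-D and 0.48 (adjusted p = 0.0371) in Col-0, below that median in both.

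**Figure D2:**
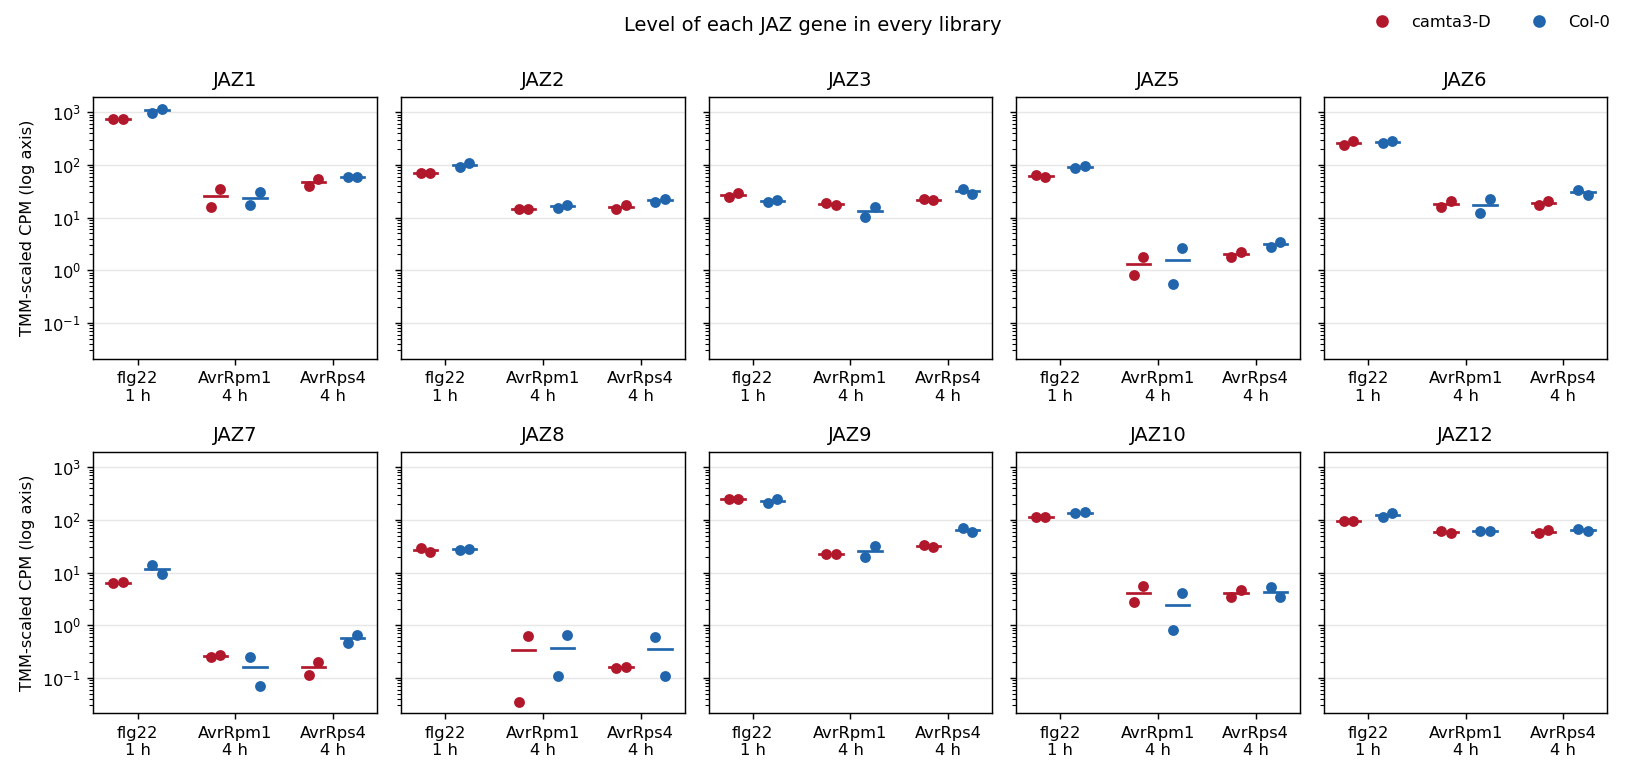
Each panel gives 1 JAZ gene, with the TMM-scaled CPM of every library on a log axis (points, camta3-D red and left of Col-0 blue) and the mean of each group of 2 (lines). The members other than JAZ3 and JAZ12 lie several-fold lower after Pst than after flg22, and JAZ3 spans 10.3 to 35.2 CPM. Its flg22 libraries lie between the strains in Col-0 and above the Pst libraries in camta3-D.

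After flg22, only JAZ2 differed between the genotypes by the test. JAZ2, which acts in guard cells as a co-receptor of coronatine, had 70.1 and 71.9 CPM in camta3-D, against 89.7 and 107 CPM in Col-0. The groups did not overlap, and the difference was -0.47 ± 0.12 (adjusted p = 0.0413, 1.38-fold lower). Of the 10 members 1 was called lower and none higher, beside 5.59% and 5.21% of all tested genes, and 3 had an unadjusted p under 0.05, as had 28.2% of all tested genes. The median over the members was -0.32, beside 0.04 over all genes. The JAZ2 call was lost without Col-0 replicate 2 (-0.36, adjusted p = 0.199), without camta3-D replicate 1 (adjusted p = 0.122) and without camta3-D replicate 2 (adjusted p = 0.118), and a fit of the flg22 libraries alone called JAZ1 and JAZ5 lower (adjusted p = 0.0408 and 0.0354) but not JAZ2 (0.0669). The 5 guard cell markers summed to 2173 to 2354 CPM in camta3-D and 3064 to 3544 CPM in Col-0. FAMA, MYB60 and TGG1 were lower, 3 of 5 (adjusted p = 0.0121, 0.0239 and 0.0194). Leaving out Col-0 replicate 2 or camta3-D replicate 1 ended all 3 calls. Leaving out either of the other flg22 libraries ended that of MYB60, and camta3-D replicate 2 that of TGG1. With 1 library left out their differences were -1.14 to -0.82, -0.82 to -0.62 and -0.68 to -0.46. The part of these markers in the JAZ2 result was not tested.

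The remaining members after flg22 fall into those whose libraries separated and those whose libraries mixed. JAZ1 was below Col-0 in both camta3-D libraries (-0.54 ± 0.34, adjusted p = 0.326). JAZ5 had 65.1 and 59.5 CPM in camta3-D against 89.4 and 94.0 CPM in Col-0 (-0.56 ± 0.36, adjusted p = 0.342), and JAZ10 had 114 and 114 against 135 and 140 CPM (-0.27 ± 0.42, adjusted p = 0.714). None of these 3 differences passed the test in the fit of all 12 libraries, while the fit of the flg22 libraries alone called JAZ1 and JAZ5, as given above. JAZ7 had 6.27 and 6.47 CPM against 14.2 and 9.53 CPM (-0.90 ± 0.27, adjusted p = 0.0615). JAZ12 had 96.1 and 95.5 against 114 and 132 CPM (-0.36 ± 0.11, adjusted p = 0.0609). DESeq2 called both of these lower, with adjusted p = 0.0412 for JAZ7 and 0.0237 for JAZ12. JAZ3 alone was higher in both camta3-D libraries (0.41 ± 0.19, adjusted p = 0.202). JAZ6, JAZ8 and JAZ9 overlapped between genotypes, with differences between -0.05 and 0.11.

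After AvrRpm1 no member passed the test, where 1.12% of all tested genes were called higher and 3.41% lower, and 1 member had an unadjusted p under 0.05, as had 20.1% of all tested genes. DESeq2 called none either. The median over the members was 0.00, beside 0.01 over all genes. JAZ3 had 18.7 and 17.1 CPM in camta3-D against 10.3 and 15.8 CPM in Col-0 (0.45 ± 0.20, adjusted p = 0.237), the only member with camta3-D above Col-0 in every library. JAZ2 was lower in both camta3-D libraries, at 14.3 and 14.6 against 15.3 and 17.3 CPM (-0.18 ± 0.13, adjusted p = 0.508). For several members the replicates of this treatment lay far apart. JAZ5 had 0.816 and 1.82 CPM in camta3-D and 0.538 and 2.62 CPM in Col-0. JAZ10 had 2.80 and 5.49 CPM in camta3-D and 0.825 and 4.10 CPM in Col-0, and JAZ1, JAZ6 and JAZ8 spread likewise, with replicate 1 of each genotype the lower. Without Col-0 AvrRpm1 replicate 2, JAZ10 would be called higher (2.32, adjusted p = 0.0336).

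After AvrRps4 every member had a negative difference, and JAZ9 passed the test. JAZ9, whose protein binds DELLA growth repressors as well as MYC factors, had 32.6 and 30.5 CPM in camta3-D, against 69.9 and 59.6 CPM in Col-0 (-1.04 ± 0.19, adjusted p = 0.0222, 2.05-fold lower). The camta3-D libraries agreed closely and lay well below both Col-0 libraries. Of the 10 members 1 was called lower and none higher, beside 2.44% and 2.49% of all tested genes, and 5 had an unadjusted p under 0.05, as had 23.6% of all tested genes. The median over the members was -0.58, beside -0.0021 over all genes. The JAZ9 call was lost without Col-0 replicate 1 (-0.92, adjusted p = 0.139), camta3-D replicate 1 (-1.09, adjusted p = 0.114) or camta3-D replicate 2 (adjusted p = 0.126). The 4 mesophyll markers summed to 58538 to 59850 CPM in camta3-D and 38839 to 45233 CPM in Col-0 after AvrRps4. Of these 4, LHCB1.3, a light-harvesting protein gene, was called higher (0.55, adjusted p = 0.0431). That call was lost without Col-0 replicate 1 (adjusted p = 0.161), camta3-D replicate 1 (0.131) or camta3-D replicate 2 (0.176) and in a fit of these libraries alone (0.2895). The guard cell markers summed to 1497 to 1546 CPM in camta3-D and 1570 to 1634 CPM in Col-0, and 1 of 5, MYB60, was lower (-0.63, adjusted p = 0.0417, and 0.109 to 0.189 without any 1 of the 4 libraries). The part of these markers in the JAZ differences was not tested.

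Both camta3-D libraries lay below both Col-0 libraries after AvrRps4 for 7 members, JAZ9 and 6 others, and for 27.5% of all tested genes. JAZ1 had 40.6 and 53.7 CPM in camta3-D against 60.0 and 58.9 CPM in Col-0 (-0.33 ± 0.34), and JAZ2 had 14.5 and 17.2 against 19.7 and 23.0 CPM (-0.43 ± 0.13, adjusted p = 0.0853). JAZ3 had 22.5 and 21.5 against 35.2 and 27.8 CPM (-0.52 ± 0.19, adjusted p = 0.145). JAZ5 had 1.79 and 2.23 against 2.75 and 3.50 CPM (-0.64 ± 0.49). All of these were lower in camta3-D by less than the test could call. JAZ6 had 17.1 and 20.4 against 34.1 and 27.2 CPM (-0.71 ± 0.25, adjusted p = 0.133). JAZ7 had 3 and 5 reads against 13 and 18 reads (-1.80 ± 0.53, adjusted p = 0.0808). JAZ8, JAZ10 and JAZ12 overlapped between the genotypes.

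**Figure D3:**
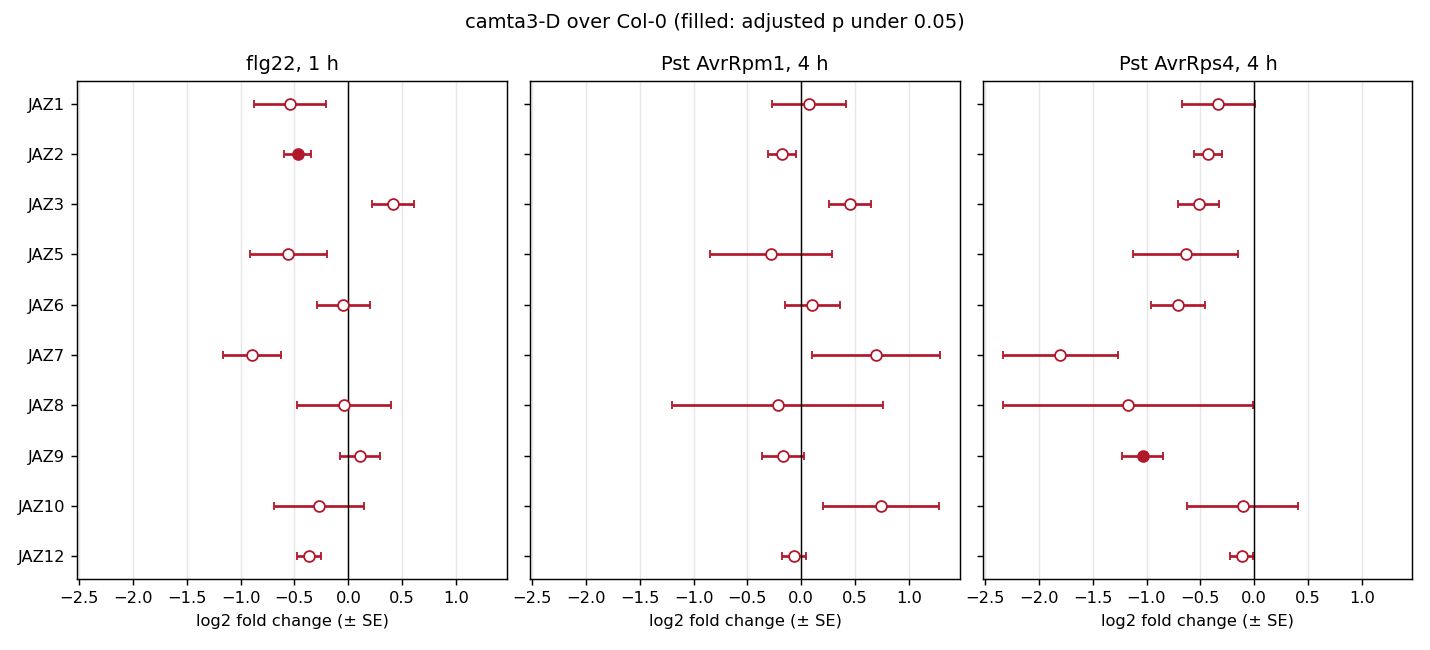
The log2 fold change of camta3-D over Col-0 is plotted for each JAZ gene with its standard error, in a panel for each treatment, and filled points passed an adjusted p of 0.05. Only JAZ2 after flg22 (-0.47) and JAZ9 after AvrRps4 (-1.04) are filled, and all 10 points lie below 0 after AvrRps4.

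Averaged over the 3 treatments, JAZ2 (-0.36 ± 0.07, adjusted p = 0.00945) and JAZ9 (-0.36 ± 0.11, adjusted p = 0.0434) were lower in camta3-D, 2 of 10 members beside 10.5% of all tested genes called lower and 10.3% called higher. JAZ2 was below Col-0 in every treatment. In the same mean 4 of 5 guard cell markers were lower (median -0.41), 2 of 4 mesophyll markers higher (median 0.28) and 1 of 5 phloem markers higher (median -0.0237), and their part in these results was not tested. The JAZ9 differences were 0.11 after flg22, -0.17 after AvrRpm1 and -1.04 after AvrRps4. The call of JAZ9 in the mean was lost without any of 10 of the 12 libraries, the exceptions being Col-0 AvrRpm1 replicate 1 and Col-0 AvrRps4 replicate 2. Its adjusted p then lay between 0.0507 (without Col-0 flg22 replicate 1) and 0.102 (without Col-0 AvrRps4 replicate 1), and the difference shrank to -0.23 without Col-0 AvrRpm1 replicate 2.

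The difference of the genotype effect between treatments was tested directly. No member passed between AvrRpm1 and flg22, where 0.563% of all genes were called either way, between AvrRps4 and flg22 (0.047%) or between AvrRpm1 and AvrRps4 (0.0209%). At an unadjusted p under 0.05 there was 1 member in the first of these tests, beside 15.7% of all genes, 2 members in the second, beside 16.5%, and 4 in the last, beside 15.6%. The nearest was JAZ9, whose genotype difference after AvrRps4 was below that after flg22 by a log2 value of -1.15 (adjusted p = 0.105 by edgeR, 0.0128 by DESeq2, which called no other member in these tests). For JAZ3 the same difference was -0.93 (adjusted p = 0.158 and 0.0867), with camta3-D above Col-0 after flg22 and AvrRpm1 and below it after AvrRps4.

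AvrRpm1 and AvrRps4 leaves, sampled at the same time and bacterial dose, were compared next. In camta3-D no member was called, where 10.5% of all genes were called higher and 12.4% lower, and 2 members had an unadjusted p under 0.05, as had 36.7% of all genes. JAZ9 had 22.2 and 22.9 CPM after AvrRpm1 against 32.6 and 30.5 CPM after AvrRps4 (-0.48 ± 0.19, adjusted p = 0.101), and a fit of these 4 libraries alone called it lower (adjusted p = 0.0288). JAZ3 had 18.7 and 17.1 against 22.5 and 21.5 CPM (-0.30 ± 0.19, adjusted p = 0.299). JAZ1 gave -0.90 ± 0.34 (adjusted p = 0.0868, and 0.0355 by DESeq2, which called it; it was also called without camta3-D AvrRpm1 replicate 2, at -1.58, adjusted p = 0.0144).

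In Col-0, JAZ3 and JAZ9 were lower after AvrRpm1 than after AvrRps4. JAZ3 had 10.3 and 15.8 CPM after AvrRpm1 against 35.2 and 27.8 CPM after AvrRps4 (-1.27 ± 0.20, adjusted p = 0.0116). JAZ9 had 19.3 and 31.3 against 69.9 and 59.6 CPM (-1.36 ± 0.19, adjusted p = 0.00899). Neither overlapped between the strains. Of the 10 members 2 were called lower and none higher, beside 2.17% and 1.58% of all tested genes, and the median was -0.91 beside 0.00 over all genes. An unadjusted p under 0.05 was found for 6 members and for 19.9% of all tested genes. JAZ1 had 17.4 and 30.7 against 60.0 and 58.9 CPM (-1.30 ± 0.35, adjusted p = 0.0687), and DESeq2 called it lower together with JAZ6. Without a filter on low counts JAZ1 was called too (-1.30, adjusted p = 0.0377). The JAZ3 call was lost without Col-0 AvrRpm1 replicate 1 (-0.99, adjusted p = 0.0672) or Col-0 AvrRps4 replicate 1 (-1.09, adjusted p = 0.0501). Without Col-0 AvrRpm1 replicate 2, JAZ5 (-2.53) and JAZ6 (-1.33) were called lower as well (adjusted p = 0.0342 each). A fit of these 4 libraries alone called neither JAZ3 (adjusted p = 0.0653) nor JAZ9 (0.0614). Of the 4 mesophyll markers 1 was called higher after AvrRpm1 in Col-0, the carbonic anhydrase gene CA1 (0.92, adjusted p = 0.00567, and 0.0508 without Col-0 AvrRpm1 replicate 1), their median was 0.51, and their part in these results was not tested. Whether the strains differed less in camta3-D than in Col-0 is the interaction above, in which neither JAZ3 (0.97, adjusted p = 0.166) nor JAZ9 (0.87, adjusted p = 0.192) passed.

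**Figure D4:**
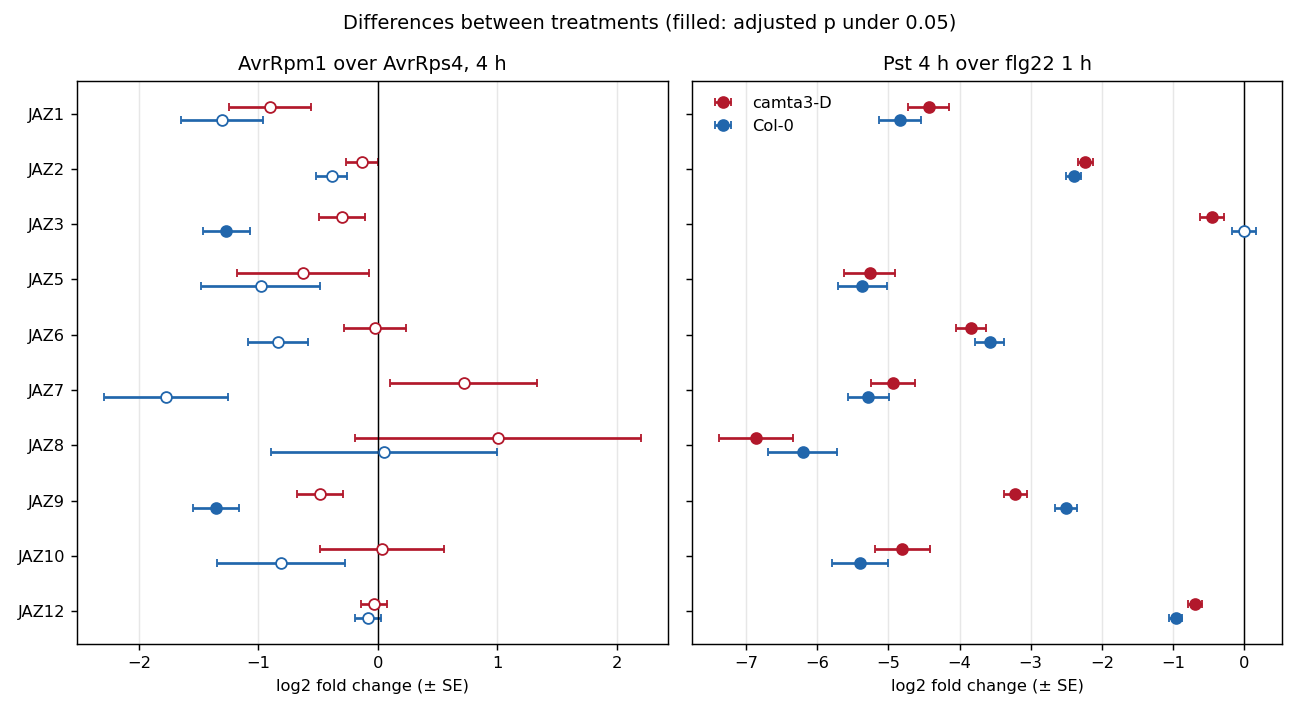
Log2 fold changes with standard errors are plotted for each JAZ gene in camta3-D (red, above) and Col-0 (blue, below), for AvrRpm1 over AvrRps4 on the left and Pst at 4 h over flg22 at 1 h on the right, and filled points passed an adjusted p of 0.05. On the left only JAZ3 and JAZ9 of Col-0 are filled, and on the right all are filled but JAZ3 of Col-0, which lies at -0.01.

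The highest of the 6 groups were alike for most members, while the order of the lower groups varied, often with overlapping libraries. Col-0 after flg22 was the highest group for JAZ1, JAZ2, JAZ5, JAZ7, JAZ10 and JAZ12, with camta3-D after flg22 next and not overlapping it. After flg22 both camta3-D libraries lay below both Col-0 libraries for these 6 members and for 25.6% of all tested genes. For JAZ6 and JAZ8 the same order held with overlapping libraries, and for JAZ9 camta3-D after flg22 was first and overlapped Col-0. Col-0 after AvrRps4 came next for every member but JAZ3 and JAZ8. JAZ3 ran from Col-0 after AvrRps4 (31.5 ± 5.23 CPM, SD, n = 2) through camta3-D after flg22 (27.2 ± 3.84), with which it overlapped, to camta3-D after AvrRps4 (22.0 ± 0.71), Col-0 after flg22 (20.4 ± 1.33), camta3-D after AvrRpm1 (17.9 ± 1.18) and Col-0 after AvrRpm1 (13.1 ± 3.90).

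Over the 12 libraries the log2 CPM of the 9 members other than JAZ3 correlated with each other at Pearson's r of 0.918 to 0.993, and that of JAZ3 with theirs at 0.244 to 0.528. The 12 points share the split into flg22 and Pst leaves, and r is given as a description. After the group means were taken out, JAZ6 and JAZ10 (r = 0.97) and JAZ5 and JAZ10 (r = 0.92) still varied together, JAZ3 varied with JAZ9 (r = 0.87), and JAZ7 ran against JAZ9 (r = -0.95). With 2 libraries a group such residuals carry 1 difference per group.

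Among 19157 other tested genes, those most like a member were the receptor-associated kinase gene BIK1 (r = 0.993) and the glutathione peptidase gene GGP1 (0.996) for JAZ6, and the cinnamoyl-CoA reductase gene CCR2 and the transporter gene ABCB21 (0.993 each) for JAZ5. The thioredoxin gene TH9 (0.993) and the small GTPase gene ARFC1 (0.992) were nearest to JAZ2. The calcium pump gene ECA2 (0.989) and AT1G28190 (0.986) were nearest to JAZ7, and the laccase gene LAC8 and AT1G07160 (0.992 each) to JAZ8. The homoterpene synthesis gene CYP82G1 (0.989) and AT1G74350 (0.984) were nearest to JAZ9, the import gene TIM23-2 (0.990) and CYP71B5 (0.985) to JAZ12, AT3G57450 and AT4G36500 (0.995 each) to JAZ1, and AT5G65300 (0.994) and AT1G66500 (0.992) to JAZ10. JAZ3 had the weakest match, with AT2G18969 (0.891) and AT3G56290 (0.857).

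Of the family members outside the set, JAZ4 had 0 to 11 reads in any library. JAZ13 had at most 1 read in any Pst library, and 7 and 22 reads in camta3-D and 68 and 18 in Col-0 after flg22. JAZ11 ran the other way, with 219 to 451 reads in the 8 Pst libraries, and 120 and 143 reads in camta3-D and 109 and 96 in Col-0 after flg22.

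The partners of the JAZ proteins moved little with genotype. COI1, the receptor, had 24.6 to 30.8 CPM in the Pst libraries, and 10.9 and 12.2 CPM in camta3-D and 17.1 and 12.2 CPM in Col-0 after flg22. NINJA had 32.3 to 53.5 CPM in all libraries. Neither was called between genotypes in any treatment. Of 8 receptor and co-repressor genes, 1 was lower after flg22, beside 5.59% of all tested genes, and none was called after AvrRpm1 or AvrRps4. That gene was TPL, the co-repressor TOPLESS, with 78.5 and 82.9 CPM in camta3-D against 112 and 108 CPM in Col-0 (-0.45, adjusted p = 0.0294, and at least 0.0807 without any 1 of the 4 libraries). Of 8 JAZ-bound factors and their partners, MYC3 was lower after AvrRpm1, at 34.4 and 31.0 against 48.5 and 46.9 CPM (-0.55, adjusted p = 0.0334, and 0.0785 to 0.213 without any 1 of the 4), and none was called in the other treatments. The share of all tested genes called lower after AvrRpm1 was 3.41%. MYC2, the main JAZ target, was not called between genotypes in any treatment. It differed between strains in both genotypes. In camta3-D it had 27.3 and 33.7 CPM after AvrRpm1 against 76.4 and 71.4 CPM after AvrRps4 (-1.28, adjusted p = 0.00153), and in Col-0 20.6 and 27.1 against 62.6 and 74.2 CPM (-1.52, adjusted p = 0.00456). The related repressor JAM2 was lower after AvrRpm1 as well (-1.30, adjusted p = 0.00129 in camta3-D, and -1.36, adjusted p = 0.00567 in Col-0). Of the 8 factors 4 were called lower in camta3-D, beside 12.4% of all genes, and 2 in Col-0, beside 2.17%. None was called in the interaction of genotype and strain.

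After AvrRps4, of 14 tested jasmonate synthesis genes, 3 were lower and none higher, with a median of -0.42, and of 9 tested turnover genes 4 were lower and none higher, with a median of -1.98, beside 2.44% of all genes called lower. AOS, the allene oxide synthase at the entry of the pathway, had 146 and 186 CPM in camta3-D against 357 and 330 CPM in Col-0 (-1.05, adjusted p = 0.0132). AOC2, an allene oxide cyclase, had 93.1 and 84.1 against 345 and 211 CPM (-1.65, adjusted p = 0.00595). AOC1 gave -2.04 (adjusted p = 0.00629), though the AOC genes are so alike that reads may be split between them. The AOS call was lost without Col-0 replicate 1 (adjusted p = 0.0839) or camta3-D replicate 1 (0.0975), and the AOC1 and AOC2 calls without either camta3-D library (0.0516 to 0.0665).

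ST2A, which sulfates hydroxyjasmonate, had 80.5 and 141 CPM in camta3-D against 483 and 390 CPM in Col-0 after AvrRps4 (-1.98, adjusted p = 0.00782). JOX4, a jasmonate oxidase, had 9.32 and 13.2 against 287 and 41.4 CPM (-3.87, adjusted p = 0.0222). JOX2 and JOX3, added here after their values were seen, were called as well. In the Col-0 libraries JOX2 had 141 and 49.2 CPM and JOX3 had 47.5 and 9.13 CPM. Without the first of these libraries both calls were lost, at -1.69 for JOX2 and -2.53 for JOX3. A fit of the AvrRps4 libraries alone called none of JOX2, JOX3 and JOX4 (adjusted p = 0.0519, 0.0588 and 0.0793). Neither JOX2 nor JOX3 was called without either camta3-D library. The ST2A call was lost without Col-0 replicate 1 (adjusted p = 0.0556) or camta3-D replicate 1 (0.0510), and that of JOX4 without either camta3-D library (0.148 and 0.121). Without Col-0 replicate 1 the JOX4 difference was -1.88 (adjusted p = 0.0463).

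After flg22, 1 of 14 synthesis genes was higher and none lower, and 2 of 9 turnover genes were lower. Of all tested genes 5.21% were called higher there and 5.59% lower. JAR1, which conjugates jasmonate to isoleucine, had 129 and 177 CPM in camta3-D against 79.8 and 112 CPM in Col-0 (0.68, adjusted p = 0.0473). IAR3, which hydrolyses that conjugate, had 223 and 197 against 329 and 409 CPM (-0.81, adjusted p = 0.0106), and ST2A gave -1.01 (adjusted p = 0.0415). Leaving out any 1 of the 4 flg22 libraries ended the JAR1 and ST2A calls (adjusted p of at least 0.0523), and leaving out Col-0 replicate 2 or camta3-D replicate 2 ended that of IAR3 (0.0693 and 0.0653). After AvrRpm1, the lipoxygenase gene LOX6 was lower, at 11.4 and 11.2 against 29.1 and 25.8 CPM (-1.28, adjusted p = 0.00103). It was 1 of 14, beside 3.41% of all genes called lower, and no turnover gene was called.

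Between genotypes 5.59% of all tested genes were called lower after flg22, 3.41% after AvrRpm1 and 2.44% after AvrRps4. Of 9 genes of jasmonate output, 1 was lower in each treatment and none higher. It was TAT3, an aminotransferase gene, which after AvrRps4 had 3.82 and 2.35 CPM in camta3-D against 19.1 and 31.5 CPM in Col-0 (-3.03, adjusted p = 0.0132, and 0.0779 and 0.104 without either camta3-D library). After AvrRpm1 its call was lost without Col-0 replicate 1 (adjusted p = 0.0691) or camta3-D replicate 2 (0.0596). After flg22 TAT3 had 19.3 and 11.8 CPM in camta3-D against 123 and 288 CPM in Col-0 (log2 difference -3.72). Leaving out any 1 of these libraries gave -4.24 to -3.01. The storage protein gene VSP1, the classic mark of MYC2 activity, had 1.03 and 1.86 CPM in camta3-D and 0.643 and 12.4 CPM in Col-0 after AvrRps4, so that 1 library decides its level. Between Pst and flg22 leaves of Col-0, 11 of 14 synthesis genes and 7 of 9 turnover genes were lower, with medians of -2.36 and -3.81, beside 34.3% of all genes called lower. The JAZ members lay in the same direction as these lists, with the median of -4.21 given above.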

How the data were processed

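Whole read counts per gene, as deposited by the authors in 1 table, were used for 12 libraries of polyadenylated leaf RNA. The submitters' processing notes name FastQC (0.11.2), TopHat2 (2.0.10), HTSeq and TAIR10. The strand setting is not given in the sources used here. The 5 summary lines of the table, 5.66% to 10.8% of what was counted, were left out. Gene names and upstream windows came from RefSeq's TAIR10.1 annotation, which matched 31912 of 32678 IDs. After filterByExpr (minimum count 10) 19167 genes were tested. CPM was scaled by TMM, and correlations used log2 CPM (prior count 2).

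Each of 11 comparisons came from 1 quasi-likelihood model of all libraries in edgeR (4.0.16, R 4.3.3), with 6 group means, 6 residual degrees of freedom and a prior count of 0.125. p-values were adjusted by Benjamini-Hochberg over all tested genes, with 0.05 as the threshold. A log2 difference above 0 is higher in camta3-D, after AvrRpm1 or after Pst. The model was tested on simulated data. Alternatives were DESeq2 (1.42.0), other scalings, filters, thresholds and fits, and leaving out each library. The members and gene lists were chosen with earlier results of these data known. Named were all members, MYC2, COI1, NINJA, JAR1, AOS and CAMTA3, the 2 genes most like each member, and, where called, the 2 genes of each list with the smallest p in each genotype comparison. MYB60, CA1, JAM2, GL1, VSP1, JOX2 and JOX3 were added after their values were seen. Protein sequences were not used here, and 1 upstream window is not reported here.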

Additional observations from a re-analysis of the deposited data

How the results depend on the processing

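Counts of members called moved as follows. At a stricter threshold (adjusted p below 0.01, and a log2 difference beyond 1 in size), the members called lower in camta3-D were 0 after flg22, 0 after AvrRps4 and 0 in the mean of treatments, and 1 was lower after AvrRpm1 than AvrRps4 in Col-0. In fits of only the libraries compared they were 2 after flg22, and 1 (JAZ9) between strains in camta3-D and 0 in Col-0. DESeq2 called 3 lower after flg22, 1 between strains in camta3-D and 4 in Col-0, and 1 in the interaction of AvrRps4 with flg22. Without scaling beyond library size, an alternative chosen after seeing the data as were those of 1 strain alone, 2 were lower after AvrRps4 and 1 (JAZ3) was higher after Pst than flg22 in Col-0. The last count was also 1 with AvrRps4 alone. RLE size factors, no filter on low counts and leaving out organelle genes moved no count of members by more than 1.5 times.

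Over all tested genes the replicate numbers showed no clear pairing: deviations of same-numbered libraries correlated at -0.18 to 0.10 over 15 pairs of groups. Single genes can differ from this. After AvrRpm1, replicate 1 was the lower in each genotype for JAZ1, JAZ5, JAZ6, JAZ8 and JAZ10, as given above. With the replicate block 1 member was lower in the mean of treatments and 1 (JAZ1) after AvrRpm1 than AvrRps4 in camta3-D, JAZ1 was called there in Col-0 too (-1.36, adjusted p = 0.0344), and the LHCB1.3 and MYB60 calls after AvrRps4 were lost (adjusted p = 0.0684 and 0.0626), and the other counts of members stayed within 1.5 times. The lowest correlation was between the Col-0 AvrRpm1 and AvrRps4 libraries, and a replicate block with crossed numbers, also chosen after seeing the data, called 4 members lower there.

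Leaving out 1 library gave 0 to 1 members higher after AvrRpm1, 0 to 1 lower after flg22, 0 to 1 after AvrRps4, 1 to 3 in the mean, 0 to 1 between strains in camta3-D and 1 to 4 in Col-0. The lone library of a group is then assumed to vary like the others.

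Signs turned for members that had not been called, in the settings tried. Without a filter JAZ3 was 0.00086 for Pst against flg22 in Col-0, with AvrRps4 alone 0.63, and without scaling 0.48. Without scaling JAZ6 and JAZ12 were 0.0791 and 0.0727 between strains in camta3-D, beside a median of 0.11 over all genes. Leaving out 1 library gave, after AvrRpm1, JAZ1 from -0.61 to 0.54, JAZ5 from -1.01 to 1.27, JAZ6 from -0.26 to 0.60, JAZ8 from -3.22 to 1.53 and JAZ9 from -0.47 to 0.23. After AvrRps4 it gave JAZ8 from -1.92 to 0.50 and JAZ10 from -0.38 to 0.23, and after flg22 JAZ6 from -0.19 to 0.0328, JAZ8 from -0.20 to 0.0577 and JAZ9 from -0.0268 to 0.20. Between strains in camta3-D it gave JAZ6 from -0.24 to 0.16, JAZ8 from -1.9996 to 1.97, JAZ10 from -0.52 to 0.45 and JAZ12 from -0.13 to 0.0784, and in Col-0 JAZ8 from -1.70 to 1.72. For Pst against flg22 in Col-0 it gave JAZ3 from -0.18 to 0.13. The cause of these changes was not tested. JAZ7 and JAZ8 rest on 1 to 18 reads a library after Pst, which limits any comparison among Pst groups.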
